A study of Mus musculus with 4 samples.

Results

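The goblet cell products *Muc2*, *Tff3*, *Clca1*, *Fcgbp*, *Agr2*, *Zg16* and *Spink4* and the membrane mucins *Muc1*, *Muc4* and *Muc13* were followed in colonic organoids with and without butyrate. The 10 genes were taken by symbol from a table of 36144 gene names, by a rule that uses no measured value. They were, however, chosen with earlier results of these data known. Organoids were grown from the colon of what the sample labels describe as a male wild-type mouse of 24 weeks, whereas the study's methods name Hes1-GFP reporter mice. RNA was sequenced at passage 3 from untreated organoids on day 2 and on day 3, and from organoids given 2 mM sodium butyrate for 48 h or 72 h, so that every one of the 4 conditions has a single library. The untreated libraries are named here by the same hours. All cultures were kept in the same crypt medium, which contained EGF, Noggin, R-spondin, the GSK3 inhibitor CHIR99021 and the ROCK inhibitor Y-27632. Such a medium supports stem cells, and a culture of this kind has no immune or stromal compartment and no overlying mucus layer shaped by bacteria.

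Goblet cells fill the upper part of their cytoplasm with mucin granules and release them onto the colonic surface. MUC2 is the gel-forming mucin of that mucus, FCGBP, CLCA1, ZG16 and the trefoil peptide TFF3 are carried in it, SPINK4 is a small protein of the Kazal inhibitor family found in goblet cells, and AGR2 is a disulphide isomerase of the endoplasmic reticulum that is needed to make MUC2. MUC1, MUC4 and MUC13 have a membrane anchor, stay on the apical surface of epithelial cells as part of the glycocalyx and are not restricted to goblet cells. The comparison of both groups of genes asks whether the secreted and the cell surface sides of the mucus barrier moved together with butyrate. The goblet cell group is called secreted below, and *Agr2* is counted in it although its protein acts in the endoplasmic reticulum.

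In the GENCODE M21 annotation of GRCm38.p6, *Muc2* lay on the plus strand at chr7:141690340-141754693, and the annotation marks its locus as fragmented. *Fcgbp* (chr7:28071236-28120862) and *Zg16* (chr7:127050156-127087328) were on the same chromosome, on the plus and minus strand. *Tff3* lay at chr17:31125306-31129646, *Clca1* at chr3:145003817-145032776, *Agr2* at chr12:35992907-36004087 and *Spink4* at chr4:40920052-40931395. Among the membrane mucins, *Muc1* lay at chr3:89229057-89233381, and *Muc4* (chr16:32735886-32782391) and *Muc13* (chr16:33794037-33819934) were both on chromosome 16. *Muc4* overlapped *Muc20* on the opposite strand, which had at most 8 counts in a library. *Zg16* overlapped the non-coding *Gm44939* and *Gm22747*, and *Muc13* the antisense gene *Gm15657*, all on the opposite strand and not analysed here. How reads were assigned to strands is not given in the sources used here.

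RefSeq promoter sequences of GRCm38.p6 were matched for *Muc2*, *Fcgbp*, *Agr2*, *Muc1*, *Muc4* and *Muc13*, the last with a pair of start sites. Shown are the 250 bases before the start for *Muc2* and *Fcgbp*, whose counts with butyrate were the lower ones at 72 h, and for *Muc1* and *Muc4*, whose counts were the higher ones at both times. All are read 5′ to 3′ on the plus strand, and capitals mark every match, on either strand, to CAGCTG or CATCTG (E-boxes), CACCC (a KLF-type word), TGTTTAC (FOX), TTTATNG (CDX), ATCCT (ETS) or TATAAA (the TATA box).
Muc2, chr7:141690090-141690339: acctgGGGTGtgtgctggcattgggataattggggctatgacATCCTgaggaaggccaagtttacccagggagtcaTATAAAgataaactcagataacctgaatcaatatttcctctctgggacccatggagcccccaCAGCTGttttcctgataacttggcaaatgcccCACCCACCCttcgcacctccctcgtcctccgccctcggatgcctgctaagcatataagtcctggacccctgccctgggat
Fcgbp, chr7:28070986-28071235: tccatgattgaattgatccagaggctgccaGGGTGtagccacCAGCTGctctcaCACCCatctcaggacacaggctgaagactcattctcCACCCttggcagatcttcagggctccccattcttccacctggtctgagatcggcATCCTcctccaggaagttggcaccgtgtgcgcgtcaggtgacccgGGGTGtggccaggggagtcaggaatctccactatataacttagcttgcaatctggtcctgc
Muc1, chr3:89228806-89229055: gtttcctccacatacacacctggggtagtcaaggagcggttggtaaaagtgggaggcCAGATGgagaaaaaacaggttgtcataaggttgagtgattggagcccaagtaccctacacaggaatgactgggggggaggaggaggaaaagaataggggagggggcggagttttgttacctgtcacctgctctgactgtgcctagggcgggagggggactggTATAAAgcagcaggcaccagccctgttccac
Muc4, chr16:32735636-32735885: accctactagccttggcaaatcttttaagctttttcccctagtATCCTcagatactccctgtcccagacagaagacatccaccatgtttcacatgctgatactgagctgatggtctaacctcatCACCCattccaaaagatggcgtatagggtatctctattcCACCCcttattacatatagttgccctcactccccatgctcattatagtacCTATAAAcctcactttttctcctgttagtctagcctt

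CAGCTG, an E-box, was found in the promoters of *Muc2*, 112 bases before the start, and *Fcgbp*, 208 bases before it. It was in 13.0% of 32851 promoters of the same length. The other E-box, CATCTG, was found in *Muc1* and at 1 start of *Muc13* and in 14.4% of promoters. Neither E-box was found in *Agr2* or *Muc4*. CACCC, a KLF-type word, occurred 4 times in *Fcgbp*, 3 times in *Muc2*, where the matches nearest the start overlap by 1 base, and 2 times each in *Muc4* and *Agr2*, and 52.0% of promoters held it. TATAAA was found 31 bases before the start of *Muc1*, 36 bases before that of *Muc4*, where it overlaps a match to the CDX-type word TTTATNG, and 174 bases before that of *Muc2*, and in 12.4% of promoters. TTTATNG was also found in *Agr2* and in 9.81% of promoters, and ATCCT, an ETS-type word, in *Muc2*, *Fcgbp*, *Agr2*, *Muc4* and 1 start of *Muc13* and in 35.8%. The FOX-type word TGTTTAC was in 3.17% of promoters and in none of these windows. These are matches of letters and were not tested as binding sites. GC content was 53.2% in *Muc2*, 56.4% in *Fcgbp*, 54.8% in *Muc1* and 43.6% in *Muc4*, against a median of 52.4% over all promoters.

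Library totals were between 20790225 and 24207840 counts. They are whole-number estimates from a pseudoalignment, with no normalisation and no filter. Here they were divided by DESeq2 size factors, which were between 0.926 and 1.10, and log2 changes include a pseudocount of 1. Without replicates no difference could be set against replicate error, no p-value was computed, and the 95% intervals given cover counting error only. All 10 genes exceeded 10 counts in 2 or more libraries, the limit used in the study's methods, as did 13979 genes in all. The 7 epithelial genes listed as a check of the label, among them *Epcam*, *Cdh1*, *Krt8* and *Cdx2*, had summed normalised counts of 118787 to 129973 in every library. The 4 immune genes summed to between 7.16 and 24.8, *Col3a1*, a collagen of fibroblasts, had no count in any library, and the 4 stromal genes summed to 117 to 177.

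In untreated organoids 6 of the 7 secreted genes had higher normalised counts on day 3 than on day 2 (5 with total count scaling), *Spink4* was lower, and the butyrate library at 72 h carried less than its untreated counterpart for 6 of the 7. Of all genes tested, 49.4% were lower on day 3 in untreated organoids and 49.7% lower with butyrate at 72 h. At 48 h the same 7 genes were split, with *Tff3* and *Clca1* higher with butyrate, *Muc2*, *Agr2* and *Zg16* lower, and *Fcgbp* and *Spink4* with intervals that included 0. Of the 3 membrane mucins, *Muc1* and *Muc4* were higher with butyrate at both times, against 30.4% of genes tested, and *Muc13* stayed within 1.09-fold across the 4 libraries.

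**Figure D1:**
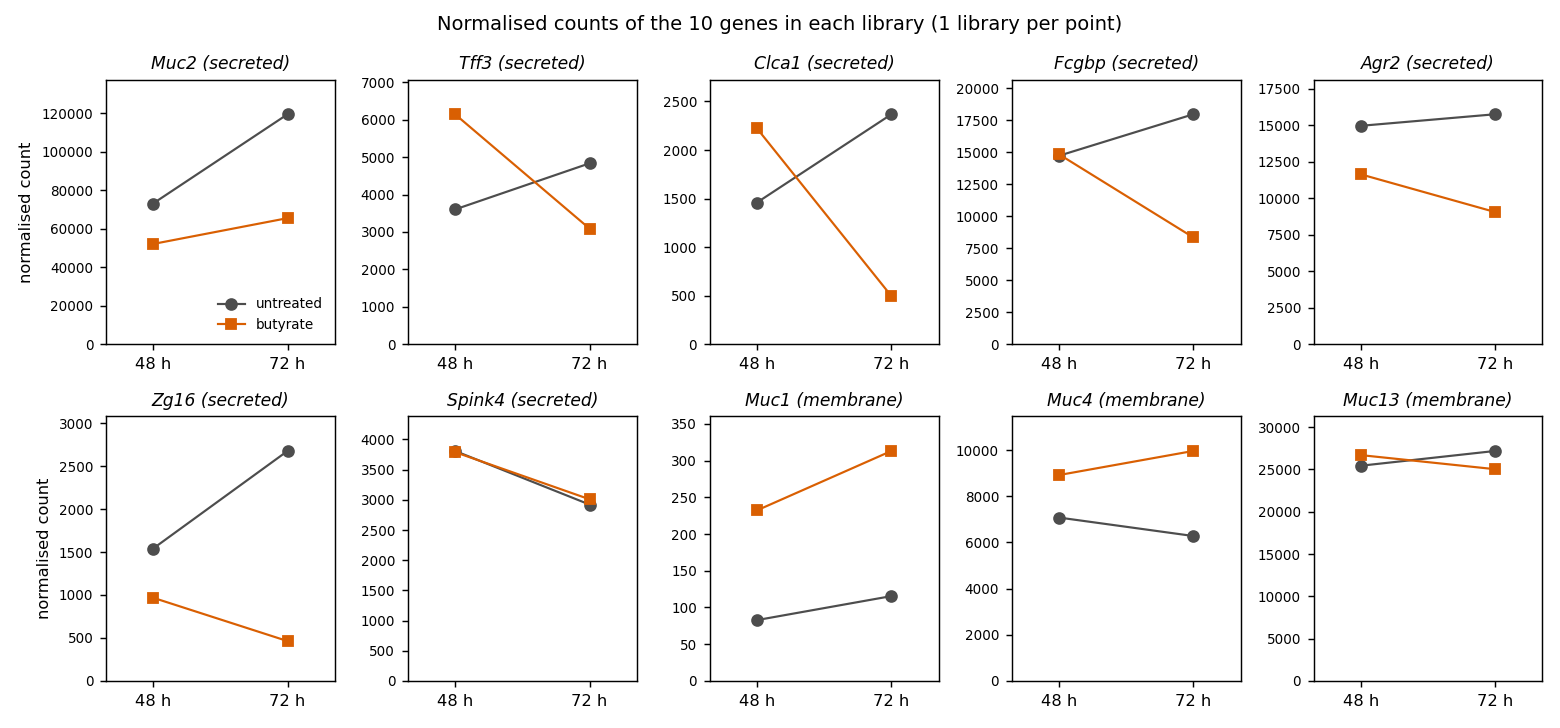
Normalised count (vertical axis, linear from 0, each panel on its own scale) at 48 h and 72 h, with each point 1 library and lines joining the libraries of a treatment. At 72 h the butyrate point lies below the untreated point for all secreted products but *Spink4*, and above it for *Muc1* and *Muc4*.

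*Muc2* reached 71452 counts without and 57372 with the treatment after 48 h, then 120956 and 60629 after 72 h. The untreated library at 72 h was the highest and the butyrate library at 48 h the lowest, 2.29-fold apart after scaling. With butyrate the log2 change was −0.49 at 48 h (interval −0.51 to −0.47) and −0.87 at 72 h (−0.88 to −0.85), so that the normalised count was 1.40-fold and 1.82-fold lower. From 48 h to 72 h *Muc2* was higher by 0.71 in untreated and by 0.33 in butyrate-treated organoids. It was the only one of the 7 secreted genes with a higher normalised count at 72 h than at 48 h in the butyrate libraries.

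*Agr2*, which acts on MUC2 in the endoplasmic reticulum, reached 14640 counts without and 12833 with the treatment after 48 h, then 15965 and 8383 after 72 h. As for *Muc2*, both butyrate libraries lay below both untreated libraries. The log2 change with butyrate at 48 h was −0.36 (−0.40 to −0.33), and at 72 h it was −0.80 (−0.84 to −0.76). The untreated libraries differed by 0.07 over time and the butyrate libraries by −0.36.

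*Zg16*, a lectin-like protein that binds bacterial cell walls, reached 1506 counts without and 1067 with the treatment after 48 h, then 2711 and 429 after 72 h. It was the third of the 7 secreted genes with both butyrate libraries below both untreated ones, a separation that 21.7% of genes tested had. Its log2 change at 48 h was −0.67 (−0.78 to −0.56), and at 72 h it was −2.53 (−2.68 to −2.38), a 5.77-fold lower normalised count and the lowest 72 h value of the 10 genes. Of all genes tested, 0.522% had a change at or below it.

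*Clca1*, a secreted metalloprotease of colonic mucus, reached 1427 counts without and 2450 with the treatment after 48 h, then 2399 and 458 after 72 h. The butyrate library thus lay above the untreated one at 48 h and far below it at 72 h. The log2 change at 48 h was 0.61 (0.51 to 0.70), and at 72 h it was −2.26 (−2.41 to −2.11), or 1.52-fold higher and 4.78-fold lower. From 48 h to 72 h the butyrate libraries differed by −2.17 and the untreated libraries by 0.70. Reads of related genes could be shared with *Clca1* in the pseudoalignment, and the neighbouring family members, named after their values were seen, differed among themselves. *Clca3b* reached 10713 counts without and 9343 with the treatment after 48 h, then 13246 and 6069 after 72 h, log2 changes of −0.37 and −0.997, whereas *Clca4a* had changes of 1.11 and −0.11 and *Clca4b* of 0.67 and −1.07, the order of signs seen in *Clca1*. *Clca3a1* had changes of −2.05 and −0.85 and *Clca3a2* of −2.26 and −0.42.

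*Tff3*, the trefoil peptide of intestinal goblet cells, reached 3523 counts without and 6776 with the treatment after 48 h, then 4897 and 2861 after 72 h. The butyrate libraries were the highest and the lowest of the 4. The log2 change at 48 h was 0.77 (0.71 to 0.83), and at 72 h it was −0.65 (−0.71 to −0.58). Both untreated libraries lay between these extremes and differed by 0.42 over time.

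*Fcgbp*, a large mucus protein with many von Willebrand type D domains, reached 14386 counts without and 16346 with the treatment after 48 h, then 18183 and 7714 after 72 h. The scaled values of both libraries at 48 h were alike, with a log2 change of 0.01 (−0.02 to 0.04), and at this depth no difference could be detected. At 72 h the change was −1.11 (−1.15 to −1.07), a 2.15-fold lower normalised count. *Spink4* reached 3726 counts without and 4178 with the treatment after 48 h, then 2959 and 2786 after 72 h. Its changes with butyrate were −0.01 (−0.07 to 0.06) and 0.04 (−0.03 to 0.12), and it was lower at 72 h than at 48 h in both treatments, by −0.38 and −0.33.

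The median log2 change of the 7 secreted genes was −0.01 at 48 h and −0.87 at 72 h, against −0.01 and 0.00 over all genes tested. At 48 h none of the 7 was at least 2-fold lower and none at least 2-fold higher with butyrate, and 4 were lower by any amount, or 5 with mitochondrial genes left out of the total, where *Fcgbp* crossed 0. Over all genes tested these shares were 3.08%, 6.94% and 51.3%. At 72 h *Zg16*, *Clca1* and *Fcgbp* were at least 2-fold lower, none was at least 2-fold higher and 6 were lower by any amount, against 3.78%, 4.53% and 49.7% of genes tested. At 1.5-fold in place of 2-fold, *Zg16* was lower and *Tff3* and *Clca1* were higher at 48 h, against 8.9% and 13.1% of genes tested, and at 72 h 6 were lower and none higher, against 8.53% and 9.5%. These counts describe single libraries, and no list was tested. In bulk RNA, fewer goblet cells and less product RNA per goblet cell cannot be told apart.

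**Figure D2:**
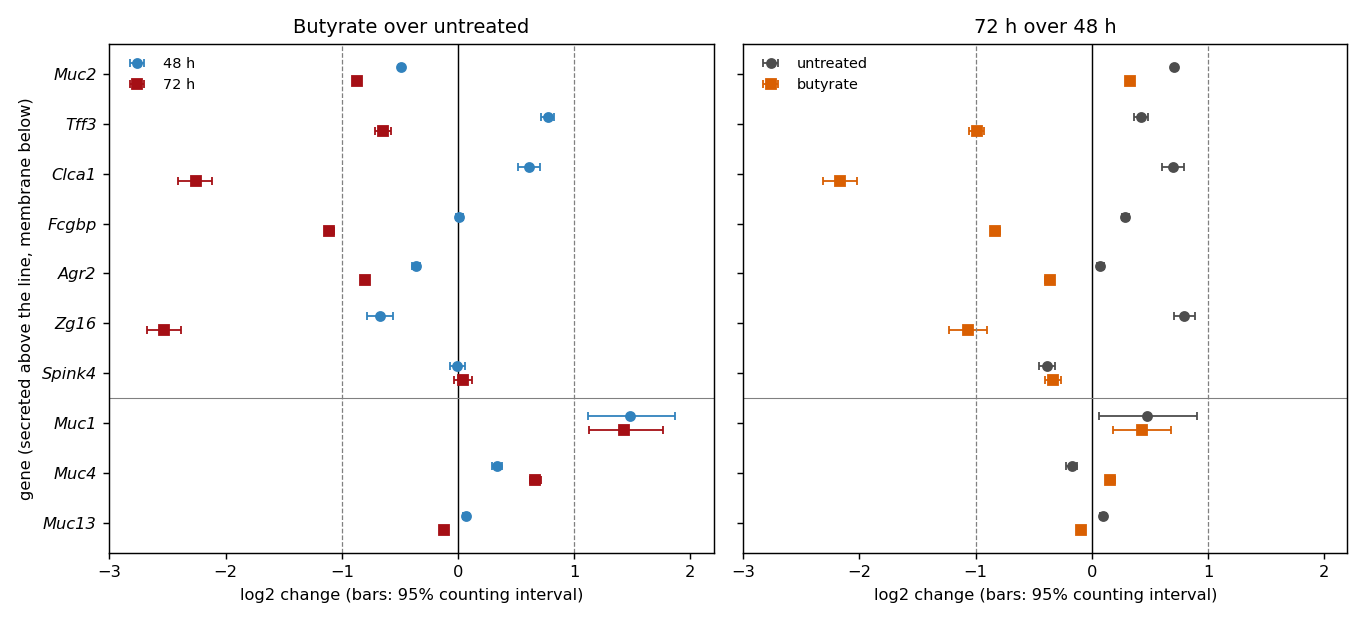
Log2 change (horizontal axis) of butyrate over untreated at 48 h and 72 h on the left, and of 72 h over 48 h in untreated and butyrate-treated organoids on the right, with 95% counting intervals as bars and 2-fold limits dashed. At 72 h *Zg16* and *Clca1* lie farthest to the left, and *Muc1* lies right of the 2-fold limit at both times.

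The untreated libraries differed over time in the direction opposite to the butyrate libraries for most secreted genes. From 48 h to 72 h, 6 of 7 were higher in untreated organoids (5 with total count scaling, where *Agr2* was at −0.0036), with a median log2 change of 0.42, and 6 of 7 were lower in butyrate-treated organoids, with a median of −0.83. In the untreated comparison none of the 7 was past 2-fold in either direction, against 1.82% of genes tested at least 2-fold lower and 2.66% at least 2-fold higher, and 1 was lower by any amount against 49.4%. In the butyrate comparison *Clca1* and *Zg16* were at least 2-fold lower against 4.95% of genes tested, none was at least 2-fold higher against 3.67%, and 51.3% of genes were lower by any amount. The untreated library at 72 h held the highest normalised count of 5 secreted genes and of 23.7% of genes tested, and the butyrate library at 72 h the lowest of 5 secreted genes and of 24.9% of genes tested. The comparisons share libraries, so the 72 h values with butyrate and the changes over time are not independent of each other.

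*Muc1*, an apical mucin of many epithelia and here the gene with the fewest counts of the 10, reached 81 counts without and 256 with the treatment after 48 h, then 117 and 290 after 72 h. Both butyrate libraries lay above both untreated libraries. The log2 change with butyrate at 48 h was 1.48 (1.12 to 1.87), and at 72 h it was 1.43 (1.12 to 1.76), or 2.78-fold and 2.70-fold higher. *Muc4*, a large membrane mucin that can bind the receptor ERBB2, reached 6924 counts without and 9832 with the treatment after 48 h, then 6359 and 9228 after 72 h. Again both butyrate libraries were the higher ones, as in 21.8% of genes tested. The log2 change at 48 h was 0.33 (0.29 to 0.38), and at 72 h it was 0.67 (0.62 to 0.71).

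*Muc13*, an abundant mucin of the intestinal apical membrane, reached 24876 counts without and 29419 with the treatment after 48 h, then 27533 and 23170 after 72 h. Its changes of 0.07 (0.05 to 0.09) and −0.12 (−0.14 to −0.09) had opposite signs and were small, with normalised counts between 25024 and 27186. The median over the 3 membrane mucins was 0.33 at 48 h and 0.67 at 72 h. *Muc1* was the 1 membrane mucin at least 2-fold higher at each time, against 6.94% of genes tested at 48 h and 4.53% at 72 h, and none was at least 2-fold lower, against 3.08% and 3.78%. Over time, the 3 genes had medians of 0.10 in untreated (0.018 with total count scaling) and 0.16 in butyrate-treated organoids. None was past 2-fold, against 1.82% of genes tested lower and 2.66% higher in untreated, and 4.95% and 3.67% in butyrate-treated organoids.

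Per kb of exon, which allows levels to be compared between genes, *Agr2* was highest in the untreated library at 48 h with a normalised count of 11595 per kb, followed by *Muc2* with 10251, *Muc13* with 8373, *Spink4* with 7987 and *Tff3* with 7307. *Fcgbp*, *Zg16* and *Muc4* followed at 1401, 1225 and 602 per kb, and *Clca1* and *Muc1* were lowest at 386 and 35.3. In the butyrate library at 48 h *Tff3* came first with 12470 per kb and *Muc2* was at the fifth place with 7304. At 72 h *Muc2* came first in both libraries, with 16757 per kb untreated and 9188 with butyrate, and *Muc13* moved from the fourth place untreated to the second with butyrate at 8949 and 8237 per kb. *Clca1* was at the eighth place in the untreated library at 72 h with 627 per kb and at the last in the butyrate library with 131, below *Muc1* with 134. Order between neighbours cannot be set against replicate spread here. The per kb level of *Muc2* rests on an annotated exon length of 7127 bases at a fragmented locus.

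Within a library, the share of secreted products in the summed counts of the 10 genes needs no scaling between libraries. It was 77.6% in untreated organoids at 48 h (exact Clopper-Pearson 95% interval 77.4% to 77.8%) and 71.9% with butyrate (71.7% to 72.1%). At 72 h it was 83.2% untreated (83.0% to 83.3%) and 71.8% with butyrate (71.5% to 72.1%). The share was lower with butyrate at both times, and the butyrate libraries of both times had overlapping intervals. *Muc2* made up 64.6% and 56.8% of the secreted counts at 48 h, untreated and with butyrate, and 72.0% and 72.8% at 72 h. Without *Muc2* the share of the other 6 secreted genes was 55.2% (54.8% to 55.5%) untreated and 52.5% (52.2% to 52.8%) with butyrate at 48 h, and 58.1% (57.7% to 58.4%) and 40.9% (40.5% to 41.3%) at 72 h. In counts per kb of exon it was 81.7% and 80.4% at 48 h and 83.8% and 76.5% at 72 h. The direction was the same in the 3 measures at both times.

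**Figure D3:**
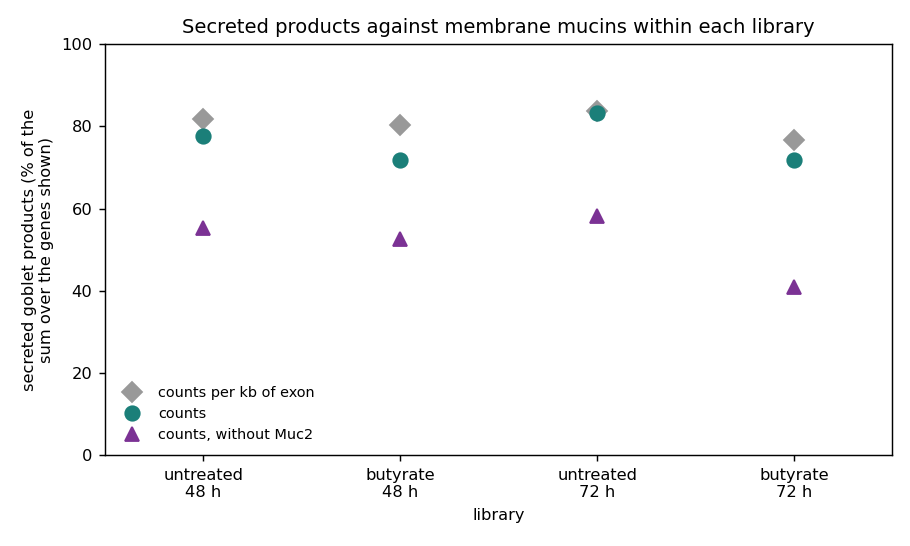
Share of the secreted products (vertical axis, percent of the sum over secreted products and membrane mucins) in each of the 4 libraries, by counts, by counts per kb of exon and by counts without *Muc2*. In each measure the butyrate point lies below the untreated point of the same time, and without *Muc2* it reaches 40.9% at 72 h.

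The summed normalised count of the secreted genes was 113153 untreated and 91656 with butyrate at 48 h, a log2 change of −0.30 (−0.32 to −0.29), and 165950 and 89924 at 72 h, a change of −0.88 (−0.90 to −0.87). That of the membrane mucins was 32599 and 35844 at 48 h, a change of 0.14 (0.12 to 0.16), and 33580 and 35304 at 72 h, a change of 0.07 (0.05 to 0.09). The secreted sum of the butyrate libraries differed by −0.03 between the times, although *Muc2* was higher and the other 6 genes were lower at 72 h. The secreted sum rests largely on *Muc2* and the membrane sum on *Muc13*.

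Other goblet genes were read from lists that were chosen with earlier results of these data known. Of 16 other secreted mucins and goblet products 15 were in the table and 11 were tested, with medians of −0.21 at 48 h and −1.14 at 72 h. At 48 h 3 were at least 2-fold lower and none at least 2-fold higher, against 3.08% and 6.94% of genes tested, and at 72 h 6 were lower and 2 higher by that measure, against 3.78% and 4.53%. From 48 h to 72 h in untreated organoids, 6 of the 11 were lower, against 49.4% of genes tested. *Reg4* changed by −1.74, *Itln1* by −1.18 and *Retnlb* by 0.999, and the summed normalised count of the 15 listed genes in the table was 13100 at 48 h and 10382 at 72 h. In butyrate-treated organoids that sum was 13368 and 8699. With butyrate, 6 of the 11 were lower at both times and 4 higher at both, against 31.3% and 30.4% of genes tested. *Ang4*, with 4242 to 7276 counts, was higher with butyrate by 0.52 at 48 h and 0.24 at 72 h. *Retnlb*, a goblet cell protein against bacteria, reached 559 counts without and 122 with the treatment after 48 h, then 1158 and 20 after 72 h, changes of −2.36 and −5.66. *Tpsg1* changed by −1.61 and −1.38 and *Capn9*, a calpain of the digestive tract, by −1.33 and −1.16. *Wfdc2*, a secreted protein of the WAP family, had changes of 0.60 and 1.75, and *Reg4*, a lectin of deep crypt secretory cells, of 0.23 and 1.06. The gel-forming mucins beside *Muc2* on chromosome 7 were at or near 0, since *Muc5b* had no count, *Muc5ac* was counted 12 times in untreated organoids at 72 h and not elsewhere, and *Muc6* had between 13 and 27.

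Of 8 other membrane mucins on the list 5 were in the table and 2 were tested. *Muc3* changed by 0.18 at 48 h and −0.22 at 72 h and *Muc3a* by −0.20 and −0.25, and reads can be shared between these related genes. *Muc15*, *Muc16* and *Muc20* had at most 8 counts in a library. At 72 h *Muc3* and *Muc3a* were thus lower with butyrate, as was *Muc13*, and as were 49.7% of genes tested. At 48 h *Muc3* was higher, with an interval of 0.12 to 0.24.

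The 11 listed regulators of goblet cells were all tested, with a median of −0.41 at 48 h and one of −0.36 at 72 h. None was past 2-fold with butyrate, against 3.08% of genes tested lower and 6.94% higher at 48 h, and 3.78% and 4.53% at 72 h. Of them, 9 were lower at both times, against 31.3% of all genes tested. Among these 9, the interval included 0 for *Klf4* at 48 h and for *Gfi1* at 72 h. *Spdef*, an ETS factor of goblet cell maturation, reached 1370 counts without and 1141 with the treatment after 48 h, then 1191 and 771 after 72 h, changes of −0.44 and −0.50. *Creb3l4* changed by −0.86 and −0.82 and *Ern2*, the IRE1 isoform of mucous epithelia, by −0.64 and −0.62. *Klf4*, a factor of differentiated epithelium, changed by −0.05 and −0.44, *Foxa1* by −0.50 and −0.09, and *Foxa2* by 0.48 and 0.02. *Atoh1*, which opens the secretory lineage, was higher at 48 h and lower at 72 h with butyrate, by 0.29 and −0.46, the same order of signs as *Tff3* and *Clca1*.

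Of 10 genes of granule exocytosis, 8 were lower at both times, against 31.3% of all genes tested, with medians of −0.15 and −0.37. At 48 h the intervals of *Rab3d*, *Rab27a* and *Sytl4*, which are among these 8, included 0. *Rab27b*, a small GTPase of secretory granules, changed by −1.22 at 48 h and −0.99 at 72 h, *Rab27a* by −0.17 and −1.10, and their effector *Sytl2* by −0.72 and −0.67. *Stxbp2*, which binds syntaxins, changed by −0.01 and 0.06. Of 6 genes of mucus processing 5 were tested. *Tgm2*, a transglutaminase, was higher at both times by 1.39 and 1.86, and *Tgm3* changed by 0.85 and −1.17 with at most 90 counts in a library. The meprins *Mep1a* and *Mep1b*, proteases of which the second can cleave MUC2, had changes of 0.34 and −0.93, and of 0.04 and −0.58.

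**Figure D4:**
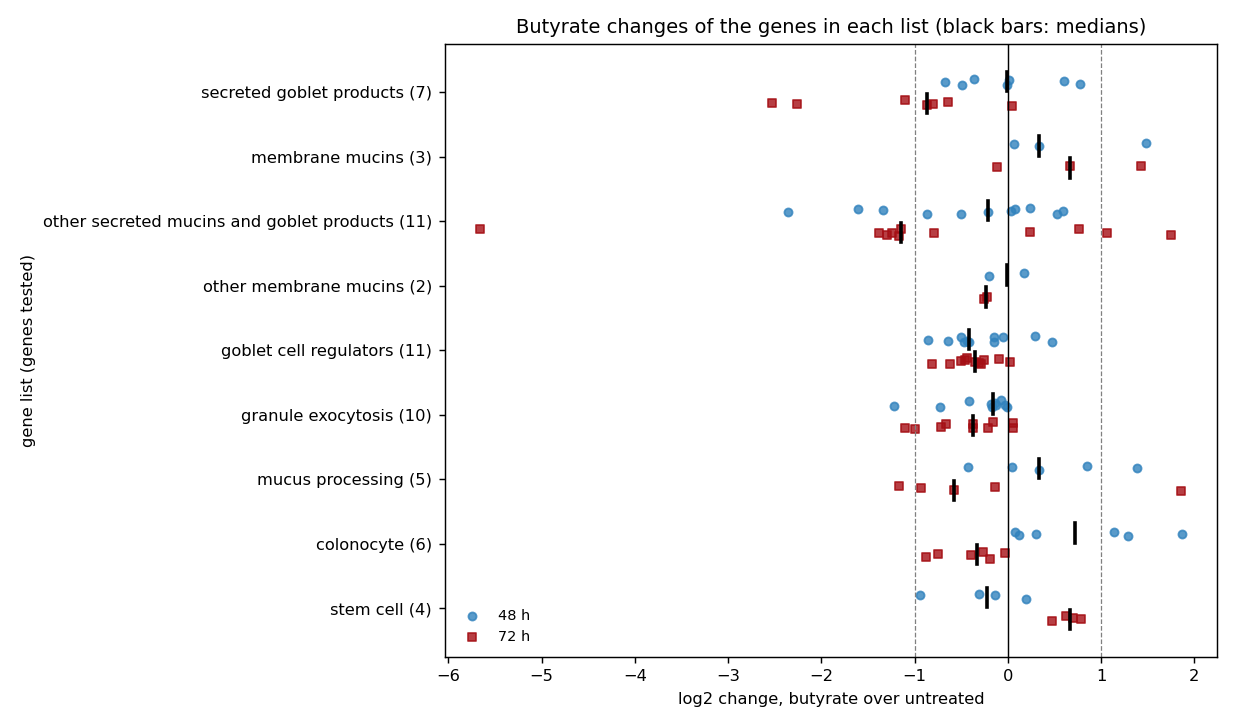
Log2 change with butyrate (horizontal axis) of the tested genes in 9 lists at 48 h and 72 h, each point 1 gene, with medians as black bars and 2-fold limits dashed. The secreted goblet products have a median near 0 at 48 h and of −0.87 at 72 h. *Muc1* and *Muc4* lie right of 0 at both times. *Muc13* lies near 0, and at 72 h it and the other membrane mucins *Muc3* and *Muc3a* lie left of 0.

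Markers of other cells moved in the same libraries. All 6 colonocyte genes were higher with butyrate at 48 h (median 0.72) and lower at 72 h (median −0.33), where 51.3% and 49.7% of genes tested were lower. The intervals of *Aqp8* included 0 at both times, and with total count scaling it was higher at 72 h, which left 5 lower. Their summed normalised counts were 48553 untreated and 80412 with butyrate, and 61833 and 41114. *Car4* changed by 1.87 and −0.39, *Slc26a3* by 1.29 and −0.20 and *Car1* by 1.14 and −0.88, signs shared with *Tff3* and *Clca1*. For the 4 stem cell genes the medians were −0.22 and 0.66, with sums of 18188 and 13275 at 48 h, and 12733 and 20804 at 72 h. Medians were 0.05 and −0.92 for the 4 enteroendocrine genes. For the 3 tuft cell genes they were −0.24 and −1.68, with sums of 306 and 250, and 345 and 103. The 4 proliferation genes had medians of 0.05 and 0.28, and the 4 Paneth cell genes of −0.41 and −0.53. The latter went both ways at 72 h, with *Lyz1* at 0.08, *Mmp7* at 0.13, *Defa24* at −2.92 and *Itln1*, which is also on the list of other goblet products, at −1.14. The part of these cell types in the values of the 10 genes was not tested.

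By a fixed rule, the genes most like the member of widest range in each group were found from the root mean square distance between centred log2 values over the 4 libraries, among 10777 genes whose normalised counts averaged 100 or more. Nearest to *Zg16* were *Ces2a* (distance 0.27), *Gm1123* (0.28), *Far2* (0.28), *Slc7a8* (0.29) and *Dclk1* (0.32). *Gm1123* reached 528 counts without and 274 with the treatment after 48 h, then 598 and 92 after 72 h. Nearest to *Muc1* were *Ly6c1* (0.10), *Rab11fip5* (0.10), *A230050P20Rik* (0.13), *Wipf3* (0.14) and *Icam1* (0.15). *Ly6c1* reached 203 counts without and 690 with the treatment after 48 h, then 272 and 651 after 72 h. Over 4 libraries such likeness is a description only.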

How the data were processed

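Poly(A)-selected TruSeq libraries of mouse colonic organoids were sequenced by the authors. Transcripts were quantified with kallisto 0.44.0, a version taken from the submitters' processing notes, which also name GRCm38.p6, and summed to genes with tximport. The deposited values are estimated counts per gene in whole numbers, so the authors' estimates had been rounded. Every column was matched to its sample by the sample description.

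As in the study's methods, genes exceeding 10 counts in 2 or more libraries were kept, and all counts were scaled with DESeq2 size factors (DESeq2 1.42.0). Log2 changes used a pseudocount of 1. TMM factors came from edgeR 4.0.16 in R 4.3.3, and other steps ran in Python 3.11.15 (pandas 2.3.3, numpy 2.4.6, scipy 1.17.1) with figures from matplotlib 3.10.9. Intervals are exact Clopper-Pearson intervals on pairs of counts at the 95% level. They cover counting error only, since the reads carry no molecular identifiers and need not come from separate molecules. With 1 library per condition no test was run. Exon lengths are unions of GENCODE M21 exons, and promoters came from RefSeq. Changes and intervals were run on simulated Poisson counts with known changes. That setting holds no spread between cultures and no reads shared between genes, so it cannot speak to either.

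The members, lists and motifs were chosen with earlier results of these data known. Named genes were the 10 members, from each other list mainly the 3 tested genes with the widest change with butyrate and those with a role given in the text, and the 5 genes nearest in pattern to 1 member of each group. Of the marker lists only sums, medians and a few examples are given. The scalings of the gene lists were added after seeing the data.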

Additional observations from a re-analysis of the deposited data

Results flagged for a closer look

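The changes with butyrate at 48 h and 72 h had opposite signs, with both counting intervals excluding 0, for 3 of the 10 genes, against 9.86% of all genes tested. Counting intervals narrow as counts rise, so a gene of high count such as *Muc13* passes at small changes. These shares therefore compare genes of unlike depth. Leaving the intervals aside, signs were opposite for 5 of the 10 genes and for 38.3% of all genes tested. *Tff3* had log2 changes of 0.77 and −0.65, *Clca1* of 0.61 and −2.26, and *Muc13* of 0.069 and −0.12. The difference between the times was not tested, since each condition has 1 library. *Tff3* and *Clca1* kept both signs under TMM scaling, total count scaling with or without mitochondrial genes, a pseudocount of 5 and all genes with at least 1 count, as did *Muc13*, whose 72 h change was −0.067 with total count scaling. The 4 normalised counts of *Muc13* lay within 1.09-fold of each other.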

How the results depend on the processing

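No paired analysis was possible because the groups compared, of a single library each, share fewer than 2 replicate numbers. Of 200 recomputed log2 changes of single genes, 184 lay inside the original counting interval, 15 fell outside it with the same sign, and 1 whose interval excluded 0 changed sign. That was *Agr2* from 48 h to 72 h in untreated organoids, which became −0.0036 with total count scaling from 0.07. Total count scaling moved the median of all genes by at most 0.08 from 0. It gave medians of −0.815 for the secreted genes and 0.719 for the membrane mucins with butyrate at 72 h, and of 0.346 and 0.0178 from 48 h to 72 h in untreated organoids. Without mitochondrial genes in the total, the secreted median at 72 h was −0.851. At 1.5-fold in place of 2-fold, 1 secreted gene was lower at 48 h and 6 at 72 h, in place of 0 and 3. *Fcgbp* at 48 h, whose interval included 0, also crossed 0 without mitochondrial genes in the total, at −0.00028. The share of secreted products moved outside its interval per kb of exon, to 81.7% and 80.4% at 48 h and 83.8% and 76.5% at 72 h, and without *Muc2*, to 55.2% and 52.5%, and 58.1% and 40.9%, untreated and with butyrate. The other medians of the secreted genes and membrane mucins kept their direction, and the number of secreted genes at least 2-fold lower with butyrate stayed at 0 and 3 under the scalings, the pseudocount of 5 and the wider gene set. The other lists were rerun under the scalings only. With total count scaling, from 48 h to 72 h in untreated organoids, the proliferation median went from 0.027 to −0.051 and 9 regulators were lower in place of 6, and 5 colonocyte genes in place of 6 were lower with butyrate at 72 h. *Muc1*, with 81 to 290 counts, has the widest intervals, and the spread between cultures is unknown for every gene.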
